A study of Homo sapiens with 21 samples.

Results

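The receptors followed here were the 4 signalling FGF receptors (FGFR1, FGFR2, FGFR3 and FGFR4), the 4 ERBB receptors (EGFR, ERBB2, ERBB3 and ERBB4) and the HGF receptor MET, in tumours grown from HT1376, an established human bladder carcinoma cell line. They were listed by symbol, and the list was chosen with earlier results of these data known. Each symbol matched 1 Ensembl gene, so that all 9 listed members were found among 57500 genes. The 21 RNA-seq libraries formed 7 groups of 3, namely tumours of mice dosed with CPI-0209, valemetostat, MAK683, tazemetostat, PF-06821497 or CPI-1205, and tumours of mice given vehicle. All 6 compounds block PRC2, the polycomb complex that methylates histone H3 through its subunits EZH2 and EZH1. The series names each of them an EZH2 inhibitor, while MAK683 acts through EED, a further PRC2 subunit. Every tumour was a subcutaneous flank graft in a female CB17 SCID mouse, 6 to 8 weeks old. Dosing by mouth once a day at 75 mg/kg, or with vehicle, began 11 to 15 days after inoculation at a mean volume of 139 to 160 mm3. Harvest was on day 15, 1 hour after a dose. The event from which day 15 was counted is not given here, and so neither is the length of dosing. SCID mice lack mature T and B cells but keep their other host cells, so a graft of this 1 cell line can also contain mouse stroma, vessels and muscle.

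Receptors of the FGF, ERBB and MET families span the cell membrane and carry a tyrosine kinase, which is active when a ligand brings the receptors together. Their shared outputs are the RAS, RAF and ERK cascade and the PI3K and AKT pathway, and ERK induces its own inhibitors, among them Sprouty proteins and dual-specificity phosphatases. In the bladder, FGFR3 is a frequent target of activating mutation and of approved inhibitors, EGFR and ERBB3 are expressed by the urothelium, and ERBB2 is amplified in a subset of muscle-invasive tumours. ERBB2 has no known ligand of its own, and ERBB3 has very little kinase activity and signals through its partners.

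All 9 receptors passed the low-count filter. EGFR and FGFR3 fell with CPI-0209, valemetostat, MAK683 and PF-06821497. MET fell with CPI-0209, valemetostat and PF-06821497, ERBB3 with CPI-0209 and valemetostat, and ERBB2 with CPI-0209. In the same tumours FGFR4, which was low with vehicle, rose with CPI-0209, valemetostat and MAK683. FGFR1, also low with vehicle, rose with CPI-0209 and MAK683. FGFR2 and ERBB4 passed the test against vehicle with none of the compounds, and no receptor passed it with tazemetostat or CPI-1205.

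Promoter sequences are shown for FGFR3, EGFR and MET, which fell with CPI-0209, valemetostat and PF-06821497, and for FGFR4, the receptor that rose with 3 compounds. Where RefSeq gives several starts, the window at the start of the gene's span in the files is shown. Each window runs from 250 bases before to 50 bases after a RefSeq start site on the GRCh38.p14 assembly. Capitals mark every CG dinucleotide, the motif counted here, which reads the same on both strands. RefSeq windows of 7 receptors were used, and none for FGFR1 or ERBB3. Over 35116 promoter windows of this length the median was 14 CG dinucleotides. The FGFR3 window on the plus strand at chr4:1793043-1793342 holds 51, a number reached by 1.005% of windows. The EGFR window on the plus strand at chr7:55018767-55019066 holds 33, a number reached by 17.2% of windows. The MET window on the plus strand at chr7:116671946-116672245 and the FGFR4 window on the plus strand at chr5:177086665-177086964 hold 30 each, reached by 22.4% of windows. All 4 windows, of the receptors that fell and of FGFR4, held more than the median window. So did the FGFR2 window at the start of its span (52, reached by 0.780% of windows) and the ERBB2 (24) and ERBB4 (19) windows. FGFR2 and ERBB4 passed the test against vehicle with none of the compounds. The counts describe the letters in these windows only.
FGFR3: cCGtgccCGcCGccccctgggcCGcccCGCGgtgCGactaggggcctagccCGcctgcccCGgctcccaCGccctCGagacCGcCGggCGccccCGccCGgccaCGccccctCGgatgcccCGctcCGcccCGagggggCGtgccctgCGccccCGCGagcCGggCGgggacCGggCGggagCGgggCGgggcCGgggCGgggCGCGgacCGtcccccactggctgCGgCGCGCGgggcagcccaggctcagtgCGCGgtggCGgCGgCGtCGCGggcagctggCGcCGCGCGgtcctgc
EGFR: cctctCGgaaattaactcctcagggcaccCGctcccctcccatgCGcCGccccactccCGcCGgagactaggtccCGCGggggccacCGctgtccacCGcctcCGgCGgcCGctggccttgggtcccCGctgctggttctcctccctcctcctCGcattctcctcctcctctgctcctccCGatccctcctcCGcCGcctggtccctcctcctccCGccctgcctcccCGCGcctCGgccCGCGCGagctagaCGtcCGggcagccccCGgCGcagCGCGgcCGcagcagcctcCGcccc
MET: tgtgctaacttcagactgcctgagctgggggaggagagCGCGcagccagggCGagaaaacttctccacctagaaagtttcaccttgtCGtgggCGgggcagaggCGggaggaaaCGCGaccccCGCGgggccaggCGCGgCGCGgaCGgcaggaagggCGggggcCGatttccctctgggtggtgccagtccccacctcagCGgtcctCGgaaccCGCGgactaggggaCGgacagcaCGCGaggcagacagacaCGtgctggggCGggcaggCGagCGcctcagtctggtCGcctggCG
FGFR4: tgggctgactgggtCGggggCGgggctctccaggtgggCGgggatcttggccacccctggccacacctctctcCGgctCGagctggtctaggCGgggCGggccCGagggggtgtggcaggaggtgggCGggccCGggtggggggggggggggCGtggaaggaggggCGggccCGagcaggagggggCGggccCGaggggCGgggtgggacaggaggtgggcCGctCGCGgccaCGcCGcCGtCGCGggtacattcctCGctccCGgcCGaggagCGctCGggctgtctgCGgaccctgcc

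The shallowest library (CPI-0209 library 3) held 9725690 counts and the deepest 25771778, and 21958 genes passed the filter and were tested. Values below are CPM (counts scaled to the TMM-adjusted library total) per library, then log2 fold changes of compound over vehicle ± SE. Adjusted p-values come from edgeR's quasi-likelihood test, two-sided, with Benjamini-Hochberg adjustment over all 21958 genes and a threshold of 0.05. The labels do not say that the 3 libraries of a group came from separate animals, so these p-values measure the spread between libraries, which may be partly technical. The carcinoma check held in every library: EPCAM, CDH1, KRT8, KRT18, KRT19, KRT7, KRT5 and TP63 were all detected, with a summed level of 5576 to 6470 CPM with CPI-0209, 5966 to 8670 CPM with valemetostat and 8062 to 8355 CPM with vehicle. The part of this difference in the receptor results was not tested. Human and mouse reads were not separated here, and any removal of mouse reads is not given in the sources used here. In bulk tumours, fewer cells that express a receptor and less receptor RNA per cell cannot be told apart.

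With CPI-0209, 2 of 9 receptors were called higher (22.3% of all genes tested were) and 5 of 9 lower (18.8% of all genes). With valemetostat, 1 was called higher (15.0% of all genes) and 4 lower (12.2%). With MAK683, 2 were called higher (10.4%) and 2 lower (5.17%), and with PF-06821497 none was called higher (5.96%) and 3 lower (3.59%). With tazemetostat and with CPI-1205, 0 of 9 were called higher (0% of all genes in both) and 0 of 9 lower (0% in both). For tazemetostat, edgeR had 647 genes at an unadjusted p under 0.05 and DESeq2 called 5 genes at its adjusted threshold. For CPI-1205 these numbers were 2713 and 46, and limma-voom called 0 genes for either compound. The median log2 fold change of the 9 receptors was -0.45 with CPI-0209, -0.36 with valemetostat, -0.22 with MAK683, -0.11 with tazemetostat, -0.30 with PF-06821497 and -0.14 with CPI-1205. Over all genes tested it lay between -0.02 and 0.02 for each compound. Upper-quartile scaling moved the median of all genes for CPI-0209 up by 0.136, to 0.12. With that scaling 67.5% of the genes called for CPI-0209 were higher, against 54.2% with the scaling used here, and for valemetostat the shares were 67.2% and 55.2%. The number of receptors called with MAK683 fell to 2 without vehicle library 2 or MAK683 library 1 and to 1 without vehicle library 3. With PF-06821497 it fell to 1 without vehicle library 3 or PF-06821497 library 3.

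**Figure D1:**
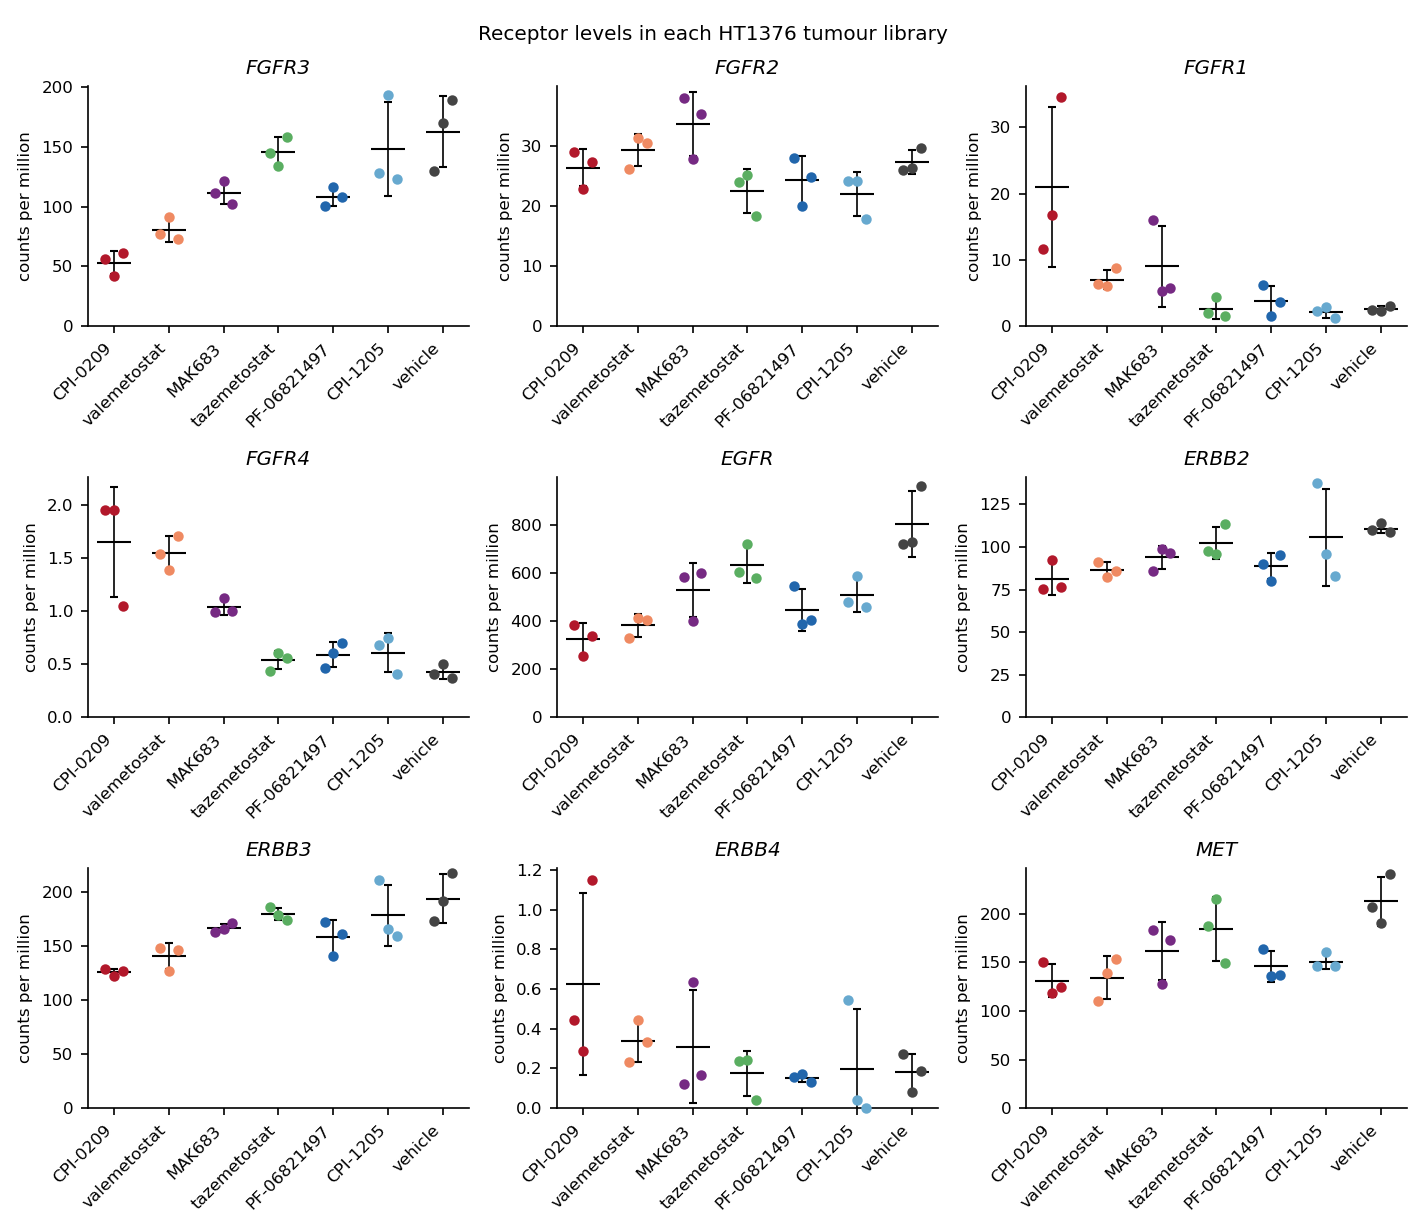
CPM of each receptor (vertical axes, linear from 0) in every library, by treatment group. Points are libraries, the wide tick is the mean of 3 libraries and the bar is 1 SD. The 3 CPI-0209 libraries lie below all vehicle libraries for FGFR3, EGFR, ERBB2, ERBB3 and MET, and above them for FGFR1 and FGFR4. For ERBB4 they lie above in CPM only, as counts of 5 to 12 with CPI-0209 overlap 2 to 6 with vehicle. The share of all genes that separate in this way is not given here.

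FGFR3 (ENSG00000068078) encodes the FGF receptor most often mutated in urothelial carcinoma. In the files it spans 1793307 to 1808872 on chromosome 4 (hg38), plus strand. The CPI-0209 libraries had 56.4, 42.3 and 60.9 CPM, the valemetostat libraries 77.0, 91.8 and 72.7 CPM, and the vehicle libraries 130, 170 and 189 CPM. Each library of either compound lay below every vehicle library, and the CPI-0209 libraries also lay below the valemetostat libraries. The log2 fold change was -1.62 ± 0.17 with CPI-0209 (adjusted p 2.62e-07), which leaves 32.6% of the vehicle level, and -1.02 ± 0.17 with valemetostat (adjusted p 1.11e-04), which leaves 49.4%. The MAK683 libraries had 111, 122 and 103 CPM and the PF-06821497 libraries 100.8, 116 and 108 CPM, again all below vehicle. These gave -0.54 ± 0.17 for MAK683 (adjusted p 0.0309) and -0.59 ± 0.17 for PF-06821497 (adjusted p 0.0294).

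Both of the smaller FGFR3 calls depended on single libraries. The MAK683 call was lost without vehicle library 2 (adjusted p 0.0913), vehicle library 3 (0.177), MAK683 library 1 (0.0962) or MAK683 library 3 (0.131). The PF-06821497 call was lost without vehicle library 2 (adjusted p 0.0929), vehicle library 3 (0.191), PF-06821497 library 3 (0.0878) or PF-06821497 library 1 (0.0958). It was also lost without the libraries marked as resubmitted in their titles (log2 -0.52, adjusted p 0.0514). For PF-06821497 the titles mark library 1, while the deposited counts mark library 2. Library numbers also differ between the 2 sources for this group, and those used here follow the titles. FGFR3 averaged 146 ± 12.3 CPM with tazemetostat and 148 ± 39.4 CPM with CPI-1205, against 163 ± 30.1 CPM with vehicle (SD, n = 3 each). Libraries of both groups overlapped vehicle, and the estimates were -0.16 (95% interval -0.51 to 0.19) and -0.14 (-0.49 to 0.21). TACC3 and LETM1, the nearest tested protein-coding genes on either side of FGFR3, differed from vehicle by 0.09 ± 0.12 and 0.02 ± 0.13 with CPI-0209 on the log2 scale, and neither passed the test.

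FGFR2 (ENSG00000066468), whose epithelial isoform receives FGF7 and FGF10 from the stroma, spans 121478334 to 121598458 on chromosome 10, minus strand. Its level was 28.9, 22.9 and 27.2 CPM in the CPI-0209 libraries and 26.0, 26.3 and 29.5 CPM in the vehicle libraries, so the groups overlapped. The estimate was -0.05 (95% interval -0.38 to 0.28), and it changed sign with other settings. MAK683 libraries had 37.8, 27.7 and 35.2 CPM, with an estimate over vehicle of 0.30 (95% interval -0.03 to 0.63, adjusted p 0.232). The 3 tazemetostat libraries (23.9, 25.1 and 18.4 CPM) and the 3 CPI-1205 libraries (24.1, 24.1 and 17.8 CPM) lay below all vehicle libraries, without passing the test (log2 -0.28 and -0.31). The difference that passed was between compounds. FGFR2 was higher with MAK683 than with tazemetostat by 0.58 ± 0.16 (adjusted p 0.0184) and than with CPI-1205 by 0.61 ± 0.16 (adjusted p 0.0131).

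FGFR1 (ENSG00000077782), the FGF receptor of mesenchymal cells, spans 38411138 to 38468834 on chromosome 8, minus strand. The CPI-0209 libraries had 11.7, 16.7 and 34.6 CPM, against 2.49, 2.22 and 3.03 CPM in the vehicle libraries. All CPI-0209 libraries lay above vehicle, and library 3 stood apart from the other two. The log2 fold change was 3.01 ± 0.55 (adjusted p 2.57e-04), an 8.06-fold rise, and 2.46 without CPI-0209 library 3 (adjusted p 0.00127). The MAK683 libraries had 16.1, 5.28 and 5.77 CPM, also all above vehicle, with a log2 fold change of 1.80 ± 0.54 (adjusted p 0.0301). That call was lost without MAK683 library 1 (log2 1.11, adjusted p 0.216), and without vehicle library 1 (0.0966), 2 (0.112) or 3 (0.0737). It was also lost with limma-voom (log2 1.59, adjusted p 0.0595). The valemetostat libraries had 6.30, 6.12 and 8.71 CPM, all above vehicle, but the estimate of 1.45 ± 0.54 missed the threshold (adjusted p 0.0559). It passed with DESeq2 (adjusted p 0.0403), in a fit of valemetostat and vehicle libraries alone (2.26e-04) and with a filter of 1 CPM in 3 libraries (0.0383). It also passed with upper-quartile scaling (0.0389) and with the skeletal muscle covariate (0.0463). With no low-count filter adjusted p-values were far smaller at like fold changes, 5.41e-09 for valemetostat (log2 1.45) and 2.80e-36 for CPI-0209 (log2 2.95). The valemetostat estimate did not pass with limma-voom (0.0620), RLE scaling (0.0528), the replicate block (0.0693), a resubmission term (0.0601), or without resubmitted libraries (0.0627). Leaving out any library of either group gave adjusted p 0.0802 to 0.154. FGFR1 with tazemetostat (2.00, 4.35 and 1.47 CPM), PF-06821497 (6.23, 1.59 and 3.60 CPM) and CPI-1205 (2.36, 2.93 and 1.16 CPM) overlapped vehicle. Of the neighbours of FGFR1, LETM2 did not pass the test with CPI-0209 (log2 0.29) and TACC1 fell by 0.59 (adjusted p 0.00194).

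Markers of other cell types moved with FGFR1 in some libraries and groups and not in others. CPI-0209 library 3, with the highest FGFR1, had a sum of 11 skeletal muscle markers of 1690 CPM, against 306 to 429 CPM in the other CPI-0209 libraries and 458 to 526 CPM with vehicle. Its sum of 10 fibroblast markers was 4339 CPM, against 1687 and 2097 CPM in the other CPI-0209 libraries and 1272 to 2045 CPM with vehicle. MAK683 library 1, with the highest FGFR1 of its group, had 2327 CPM of fibroblast markers against 1181 and 1405 CPM in the other MAK683 libraries. With valemetostat the fibroblast sum was 1246 to 1505 CPM. The muscle sum was 260 to 315 CPM with valemetostat and 360 to 419 CPM with MAK683, both below the vehicle range. The median muscle marker did not follow the sum. In log2 CPM it was 3.63 to 7.59 with CPI-0209, 0.94 to 4.15 with valemetostat and -0.77 to 4.30 with MAK683. Each range overlapped that of vehicle, -2.575 to 3.92. The median log2 fold change of the muscle markers was 3.55 with CPI-0209, 0.37 with valemetostat and 0.62 with MAK683. On the log2 CPM scale the median fibroblast marker was 2.64 to 3.92 with CPI-0209 and 0.18 to 0.60 with vehicle. It was 1.41 to 2.44 with valemetostat and 1.41 to 1.845 with MAK683, and overlapped vehicle with the other compounds. The sum of 7 endothelial markers ran from 34.2 to 45.3 CPM with CPI-0209, 20.5 to 34.5 with valemetostat, 25.9 to 30.7 with MAK683, 12.1 to 17.6 with PF-06821497, 8.16 to 8.86 with tazemetostat, 5.46 to 8.17 with CPI-1205 and 7.92 to 8.57 with vehicle. The 7 macrophage and granulocyte markers summed to 148 to 181 CPM with CPI-0209 and 143 to 172 CPM with vehicle, but their median level did not overlap. On the log2 CPM scale that median was 2.66 to 3.25 with CPI-0209, 2.20 to 2.81 with valemetostat, 1.29 to 1.60 with MAK683, 1.29 to 1.70 with PF-06821497, 0.37 to 0.81 with tazemetostat, 0.61 to 1.04 with CPI-1205 and 0.18 to 0.49 with vehicle. Of 6 tested, 4 rose and 1 fell with CPI-0209, 4 rose and 1 fell with valemetostat, 2 rose with MAK683 and 1 rose with PF-06821497. With CPI-0209, ADGRE1 rose by 3.16 ± 0.29 and LAPTM5 by 1.77 ± 0.18, while ITGAM fell by 0.76 (SE 0.18), at 73.5 ± 2.92 CPM with CPI-0209 and 124 ± 17.4 CPM with vehicle. ITGAM was singled out once its values were known. Adipocyte markers summed to 20.8 to 23.5 CPM with CPI-0209, 23.0 to 36.7 with valemetostat, 13.2 to 16.6 with MAK683, 5.78 to 6.44 with tazemetostat, 25.4 to 46.1 with PF-06821497, 2.59 to 8.42 with CPI-1205 and 2.19 to 2.67 with vehicle. This sum was highest with PF-06821497, where FGFR1 overlapped vehicle. Only 1 of the 5 adipocyte markers, FABP4, passed the low-count filter. On the log2 CPM scale the median adipocyte marker was -2.92 to -1.95 with PF-06821497 and -2.14 to -1.77 with vehicle. Members of the endothelial, fibroblast, muscle and macrophage lists moved in both directions. Among all genes tested, 22.3% rose and 18.8% fell with CPI-0209. With CPI-0209, 3 of 6 tested endothelial markers rose, among them PECAM1 (3.78 ± 0.25), and 2 fell, among them CDH5 (-1.26 ± 0.36), and 6 of 10 fibroblast markers rose, among them THY1 (6.17 ± 0.47), and 2 fell, among them FBN1 (-2.07 ± 0.20). Of 11 skeletal muscle markers 5 rose and 1 fell. MYLPF and ACTN3 of the muscle list, EMCN of the endothelial list, TYROBP of the macrophage list and ADIPOQ and CIDEC of the adipocyte list were at 0 in at least 1 library. With the median skeletal muscle marker level as a covariate, FGFR1 was higher by 2.03 with CPI-0209 (adjusted p 0.00219) and by 1.58 with MAK683 (adjusted p 0.0112). The part of the other markers in the FGFR1 result was not tested.

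**Figure D2:**
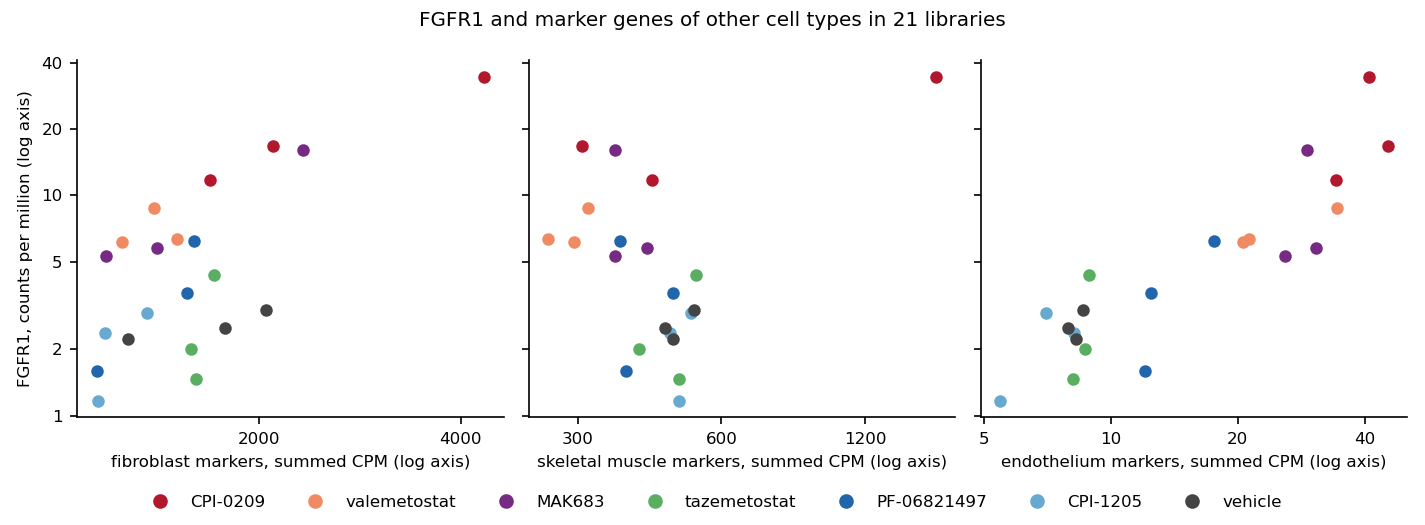
FGFR1 CPM (vertical log axes) against the summed CPM of fibroblast, skeletal muscle and endothelial markers (horizontal log axes) in all 21 libraries, coloured by group. CPI-0209 library 3 stands apart at 34.6 CPM of FGFR1, 4339 CPM of fibroblast markers and 1690 CPM of skeletal muscle markers.

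FGFR4 (ENSG00000160867), the receptor of FGF19 in liver, spans 177086886 to 177098144 on chromosome 5, plus strand. The CPI-0209 libraries had 1.95, 1.95 and 1.05 CPM, the valemetostat libraries 1.54, 1.38 and 1.71 CPM, and the MAK683 libraries 0.989, 1.13 and 0.999 CPM. The vehicle libraries had 0.407, 0.504 and 0.373 CPM, from 9, 12 and 8 counts. All libraries of the 3 compounds lay above all vehicle libraries. The rise was 1.96 ± 0.30 with CPI-0209 (adjusted p 2.66e-05), 1.83 ± 0.30 with valemetostat (adjusted p 9.21e-05) and 1.26 ± 0.31 with MAK683 (adjusted p 0.00724), or 3.90-fold, 3.56-fold and 2.40-fold. The other groups overlapped vehicle, at 0.535 ± 0.0853 CPM with tazemetostat, 0.591 ± 0.118 CPM with PF-06821497 and 0.609 ± 0.181 CPM with CPI-1205, against 0.428 ± 0.0678 CPM with vehicle. Unlike FGFR1, FGFR4 was lowest in the CPI-0209 library with the most muscle and fibroblast marker RNA (11 counts, 1.05 CPM in library 3). Of its neighbours, ZNF346 did not pass the test with CPI-0209 and the histone methyltransferase gene NSD1 fell by 0.56.

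EGFR (ENSG00000146648), the receptor of EGF, TGF-alpha and amphiregulin, was the receptor with the highest level. It spans 55019021 to 55211628 on chromosome 7, plus strand. The CPI-0209 libraries had 385, 256 and 336 CPM, the valemetostat libraries 328, 414 and 403 CPM, and the vehicle libraries 720, 730 and 964 CPM. Libraries of both compounds overlapped each other and all lay below vehicle. The log2 fold change was -1.305 ± 0.186 with CPI-0209 (adjusted p 1.02e-05; 40.5% of vehicle) and -1.08 ± 0.18 with valemetostat (adjusted p 1.54e-04; 47.4%). With PF-06821497 the libraries had 547, 389 and 404 CPM, all below vehicle, and EGFR fell by 0.85 on the log2 scale (SE 0.18, adjusted p 0.00484). With MAK683 they had 584, 399 and 602 CPM, also all below vehicle, and EGFR fell by 0.61 (SE 0.18, adjusted p 0.0268). The MAK683 call was lost without vehicle library 3 (adjusted p 0.155) or MAK683 library 2 (0.137).

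The CPI-1205 libraries had 478, 588 and 457 CPM of EGFR and also lay below all vehicle libraries. The estimate of -0.66 ± 0.18 was as large as that for MAK683, but did not pass adjustment in a comparison where no gene did (adjusted p 0.279). DESeq2 called it (adjusted p 0.0488), as did edgeR with no low-count filter (0.00240). With no filter edgeR called 358 genes for CPI-1205, against none with the filter used here. The tazemetostat libraries had 605, 721 and 578 CPM and overlapped vehicle, with an estimate of -0.34 (95% interval -0.72 to 0.04). The neighbours of EGFR went the other way with CPI-0209: SEC61G rose by 0.45 ± 0.13 (adjusted p 0.00856) and LANCL2 by 0.75 ± 0.11 (adjusted p 1.92e-05).

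ERBB2 (ENSG00000141736), the ligandless partner of the other ERBB receptors, spans 39687914 to 39730426 on chromosome 17, plus strand. Levels with CPI-0209 were 75.3, 92.5 and 76.3 CPM, against 110, 114 and 109 CPM with vehicle, and lay below it. The log2 fold change of -0.45 ± 0.14 passed the test (adjusted p 0.0153), but not without CPI-0209 library 1 (adjusted p 0.0921) or 3 (0.0595), nor with upper-quartile scaling (log2 -0.31, adjusted p 0.104). Libraries of valemetostat, MAK683 and PF-06821497 also lay below vehicle, without passing (log2 -0.36, -0.24 and -0.32). The CPI-1205 libraries were the most spread, at 138, 96.0 and 83.02 CPM. The span overlaps PGAP3 and MIEN1 on the opposite strand, and the strand setting of the counting is not given in the sources used here. MIEN1 had at most 57.5% as many counts as ERBB2 in any library, and reads of the 2 strands in the overlap cannot be told apart. GRB7, the neighbour that is often amplified together with ERBB2, differed from vehicle by -0.05 with CPI-0209 and did not pass. PNMT, the neighbour on the other side, rose by 2.705 ± 0.600 with CPI-0209 (adjusted p 0.00105). It also rose with valemetostat, MAK683 and PF-06821497.

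ERBB3 (ENSG00000065361), a receptor of neuregulins and the strongest PI3K recruiter of the family, spans 56079857 to 56103505 on chromosome 12, plus strand. The CPI-0209 libraries had 128, 122 and 127 CPM, the valemetostat libraries 148, 127 and 147 CPM, and the vehicle libraries 173, 191 and 218 CPM. Both compound groups lay below vehicle. ERBB3 fell by 0.62 with CPI-0209 (SE 0.12, adjusted p 2.01e-04) and by 0.46 with valemetostat (SE 0.12, adjusted p 0.00452). The second call was lost without vehicle library 3 (adjusted p 0.0556). MAK683 and PF-06821497 libraries also lay below vehicle, without passing (log2 -0.22 and -0.30).

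ERBB4 (ENSG00000178568), a neuregulin receptor best known from heart and nervous system, was close to the detection limit. It spans 211375717 to 212538841 on chromosome 2, minus strand. The libraries held 8, 5 and 12 counts with CPI-0209 and 6, 2 and 4 counts with vehicle, and 1 CPI-1205 library held 0 counts, which allows up to 0.134 CPM (3 counts, counting error only). The CPI-0209 estimate was 1.66 ± 0.83 (95% interval -0.07 to 3.39, adjusted p 0.117). The other 95% intervals were also wide, at -0.89 to 2.66 with valemetostat and -0.98 to 2.63 with MAK683. They were -1.95 to 1.925 with tazemetostat, -2.20 to 1.77 with PF-06821497 and -1.81 to 1.995 with CPI-1205.

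MET (ENSG00000105976), the receptor of hepatocyte growth factor (HGF), spans 116672390 to 116798386 on chromosome 7, plus strand. MET stood at 151, 118 and 124 CPM in the CPI-0209 libraries, 110, 139 and 154 CPM in the valemetostat libraries, and 207, 190 and 240 CPM in the vehicle libraries. All libraries of both compounds lay below vehicle. MET fell by 0.70 with CPI-0209 (SE 0.16, adjusted p 0.00128) and by 0.67 with valemetostat (SE 0.16, adjusted p 0.00312). The PF-06821497 libraries had 164, 136 and 137 CPM, all below vehicle, with a log2 fold change of -0.54 ± 0.16 (adjusted p 0.0320). That call was lost without vehicle library 1 (adjusted p 0.0659), vehicle library 3 (0.174), PF-06821497 library 2 (0.0950) or PF-06821497 library 3 (0.114). Libraries of MAK683 (184, 128 and 173 CPM) and CPI-1205 (146, 160 and 146 CPM) lay below vehicle too, at -0.40 (adjusted p 0.0952) and -0.49 (adjusted p 0.279). CAV1, the caveolin gene on one side of MET, fell by 1.03 with CPI-0209 (adjusted p 1.20e-06), and CAPZA2 on the other side did not pass (log2 0.07).

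**Figure D3:**
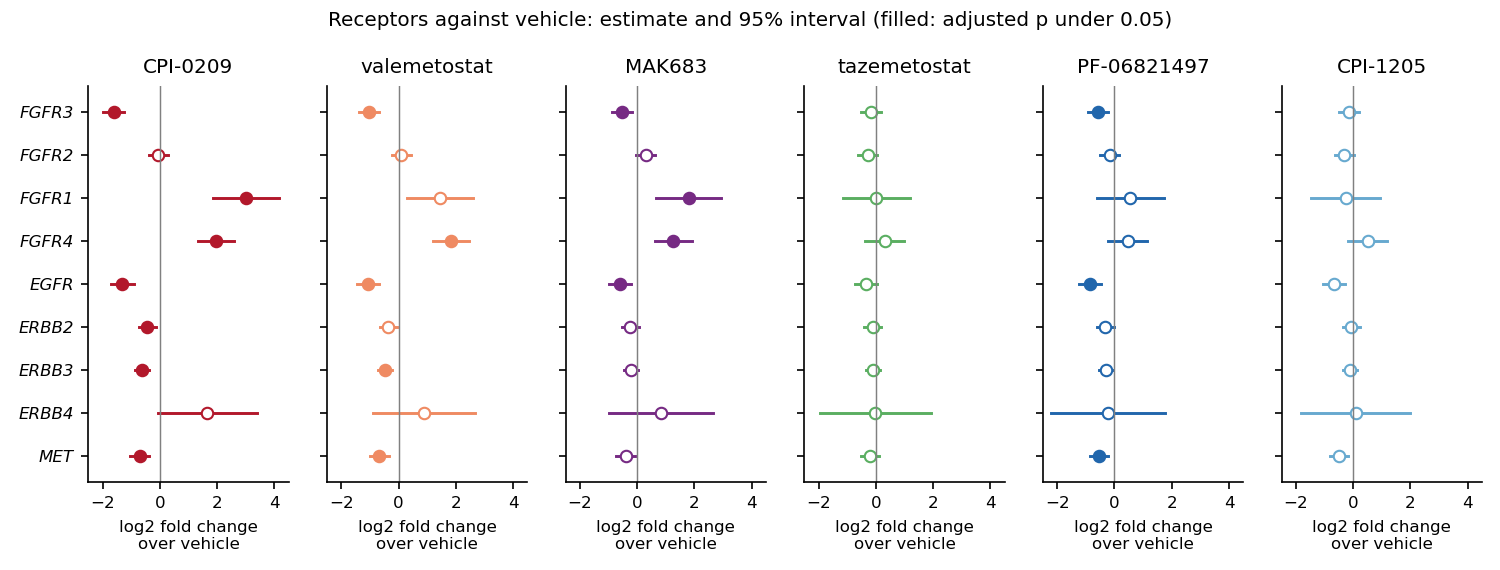
Log2 fold change of each receptor over vehicle for the 6 compounds (horizontal axes), with 95% intervals. Filled points passed the edgeR test at an adjusted p under 0.05: 7 receptors with CPI-0209, 5 with valemetostat, 4 with MAK683, 3 with PF-06821497 and 0 with tazemetostat or CPI-1205.

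Levels of different receptors were compared per gene length in TPM, which divides counts by gene length and then scales each library. With vehicle EGFR stood at 204 ± 42.9 TPM, above FGFR3 at 107 ± 22.5 and MET at 95.8 ± 15.0, whose libraries overlapped each other. ERBB3 followed at 71.0 ± 10.5, ERBB2 at 34.0 ± 0.738, FGFR2 at 11.5 ± 1.25, FGFR1 at 0.645 ± 0.126, FGFR4 at 0.279 ± 0.0365 and ERBB4 at 0.0440 ± 0.0227 TPM (SD, n = 3), with no overlap between neighbours in this part of the order. With CPI-0209, FGFR3 ranked below MET and ERBB3 at 36.1 ± 7.22 TPM. The ranges of MET at 61.1 ± 9.55 and ERBB3 at 47.6 ± 2.44 lay above it without overlap, while FGFR3 overlapped ERBB2 at 25.8 ± 2.40. EGFR at 85.5 ± 19.2 TPM overlapped MET in that group. With valemetostat MET, FGFR3 and ERBB3 stood at 60.5 ± 13.3, 52.5 ± 5.53 and 51.4 ± 5.92 TPM and overlapped, and without valemetostat library 2 FGFR3 and ERBB3 changed places. FGFR3 and MET changed places with MAK683 when library 2 was left out, and MET and ERBB3 with CPI-1205 when library 2 was left out. The 6 highest receptors were the same 6 in every group, with FGFR1, FGFR4 and ERBB4 below them.

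FGFR3 made up most of the FGF receptor RNA per length. Its share of the summed TPM of the 4 FGF receptors was 64.7%, 65.7% and 69.2% in the CPI-0209 libraries and 87.8%, 90.2% and 90.3% in the vehicle libraries. The FGFR1 share was 5.47% to 14.2% with CPI-0209 and 0.4502% to 0.640% with vehicle. The summed TPM of the 4 FGF receptors was 43.1 to 62.9 with CPI-0209 and 95.5 to 143 with vehicle. For the 4 ERBB receptors the sum was 139 to 178 TPM with CPI-0209 and 275 to 371 TPM with vehicle. Neither sum overlapped between these groups. FGFR1 and FGFR4 rose with CPI-0209, and the FGF receptor sum still lay below the vehicle range.

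**Figure D4:**
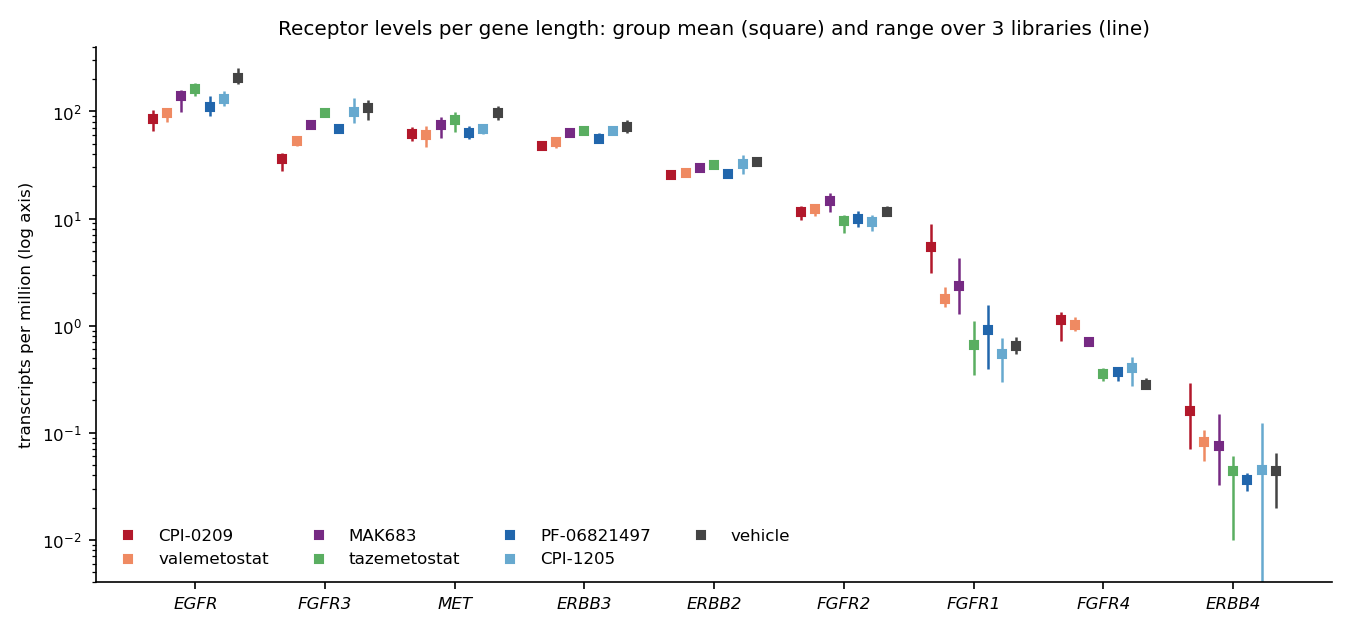
TPM of the 9 receptors (vertical log axis), in the order of their vehicle means, for each treatment group. Squares are means of 3 libraries and lines the range; a CPI-1205 line for ERBB4 reaches 0 and is cut at the axis. FGFR3 stands at 36.1 TPM with CPI-0209 and 107 TPM with vehicle.

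The 6 compounds were given at the same dose and sampled at the same time, so they were also compared with each other. An edgeR test among the 6 groups called 6 of 9 receptors (32.3% of all genes were called): FGFR1 (adjusted p 3.76e-04), FGFR2 (0.0214), FGFR3 (5.45e-06), FGFR4 (9.81e-05), EGFR (0.00312) and ERBB3 (0.00665). ERBB2 (0.200), ERBB4 (0.374) and MET (0.115) were not called. Over the 15 pairs of compounds, 30 of 135 receptor and pair combinations were called with p-values adjusted over all genes and pairs, against 11.6% of all gene and pair combinations. FGFR3 and FGFR4 differed in 7 pairs each, FGFR1 in 5, EGFR and ERBB3 in 4 each, FGFR2 in 2 and MET in 1. FGFR3 was the receptor that separated CPI-0209 from valemetostat, lower with CPI-0209 by 0.60 (SE 0.17, 95% interval -0.96 to -0.25, adjusted p 0.0235). For EGFR that pair differed by -0.23 (95% interval -0.61 to 0.15), for MET by -0.03 (-0.36 to 0.30) and for FGFR4 by 0.13 (-0.43 to 0.69), none of which passed. FGFR1 was higher with CPI-0209 than with valemetostat by 1.56 (95% interval 0.49 to 2.63), which missed the threshold (adjusted p 0.0546).

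CPI-0209 was below MAK683 in FGFR3 (-1.08 ± 0.17, adjusted p 1.85e-04), EGFR (-0.70 ± 0.18, adjusted p 0.0145) and ERBB3 (-0.41 ± 0.12, adjusted p 0.0246). The share of all genes called is known for the 15 pairs together (11.6%) and is not given for single pairs. The counts that follow therefore have no share of their own pair beside them. Against tazemetostat, 6 receptors differed with CPI-0209, 4 with valemetostat and 3 with MAK683. The largest of these was FGFR1, higher with CPI-0209 than with tazemetostat by 2.99 ± 0.54 (adjusted p 0.00110), and MET passed in this pair alone (-0.49 ± 0.16, adjusted p 0.0465). Tazemetostat and CPI-1205 differed in no receptor. Their intervals allowed -0.37 to 0.33 for FGFR3 and -0.06 to 0.70 for EGFR.

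The counts of the gene lists below stand beside the shares of all genes tested. With CPI-0209, 22.3% of all genes were called higher and 18.8% lower. These shares were 15.0% and 12.2% with valemetostat, 10.4% and 5.17% with MAK683, and 5.96% and 3.59% with PF-06821497. EGF-family ligands bind EGFR, ERBB3 or ERBB4. Of 11 listed, 10 were tested, and 7 rose and 0 fell with CPI-0209 (median log2 fold change 1.09, against -0.02 for all genes), 6 and 0 with valemetostat (median 1.01), 5 and 0 with MAK683 (0.74), 4 and 0 with PF-06821497 (0.61), and 0 and 0 with tazemetostat (0.23) or CPI-1205 (-0.13). The count for PF-06821497 was 2 without vehicle library 1 or 2 or PF-06821497 library 1. AREG, which encodes amphiregulin, stood at 289 ± 8.48 CPM with CPI-0209 and 133 ± 11.3 CPM with vehicle (1.12 ± 0.15, adjusted p 3.92e-06). HBEGF, the heparin-binding ligand of EGFR and ERBB4, stood at 310 ± 32.3 and 117 ± 18.8 CPM (1.41 ± 0.23, adjusted p 4.75e-05), and TGFA at 120 ± 3.54 and 64.4 ± 3.95 CPM (0.90 ± 0.17, adjusted p 1.84e-04). AREG and HBEGF also rose with valemetostat, MAK683 and PF-06821497.

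Among the remaining ligands of the family, EREG (134 ± 21.3 CPM with CPI-0209 and 149 ± 23.9 CPM with vehicle) and EPGN (28.1 ± 5.90 and 29.4 ± 1.43 CPM) did not pass the test with any compound. The neuregulins, ligands of ERBB3 and ERBB4, were low with vehicle. NRG2 rose to 3.32 ± 0.137 CPM with CPI-0209, against 0.166 ± 0.101 CPM (4.29 ± 0.42, adjusted p 9.72e-08), and NRG1 to 2.57 ± 0.609 CPM, against 0.312 ± 0.0761 CPM (3.00 ± 0.45, adjusted p 2.05e-05). NRG4 (-0.83 ± 0.43) did not pass. EGF itself rose by 1.06 ± 0.28 and betacellulin (BTC) by 1.63 ± 0.36 with CPI-0209.

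FGF family genes, listed here as FGF ligands, were low throughout. The list was made by family name, and whether the product of each gene acts as a ligand of these receptors was not examined. Of 22 listed, 10 passed the low-count filter, and 5 rose and 1 fell with CPI-0209 (median 1.14). The one that fell was FGF1, which binds all FGF receptors. It stood at 0.732 ± 0.0912 CPM with CPI-0209, 1.14 ± 0.152 with valemetostat, 1.54 ± 0.451 with MAK683 and 2.79 ± 0.634 with vehicle (-1.91 ± 0.27, -1.29 ± 0.25 and -0.85 ± 0.24, with adjusted p 1.07e-05, 4.96e-04 and 0.0186). The MAK683 call was lost without vehicle library 2 or 3 or MAK683 library 1. FGF7, a stromal ligand of epithelial FGFR2, stood at 4.499 ± 3.644 CPM with CPI-0209 and 0.286 ± 0.126 CPM with vehicle (3.91 ± 0.90, adjusted p 0.00171). FGF18 (2.13 ± 0.55) and FGF14 (1.77 ± 0.48) rose with CPI-0209, and FGF12 did not pass there (0.52 ± 0.21). FGF5 had 33 counts over the CPI-0209 libraries and 2 over the vehicle libraries, a ratio of rates of 27.1 (95% counting interval 6.92 to 233; edgeR adjusted p 5.86e-04). FGF11 did not pass with any compound. The markers of fibroblasts and muscle given beside FGFR1 are from the same libraries, and their part in the FGF7 result was not tested.

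**Figure D5:**
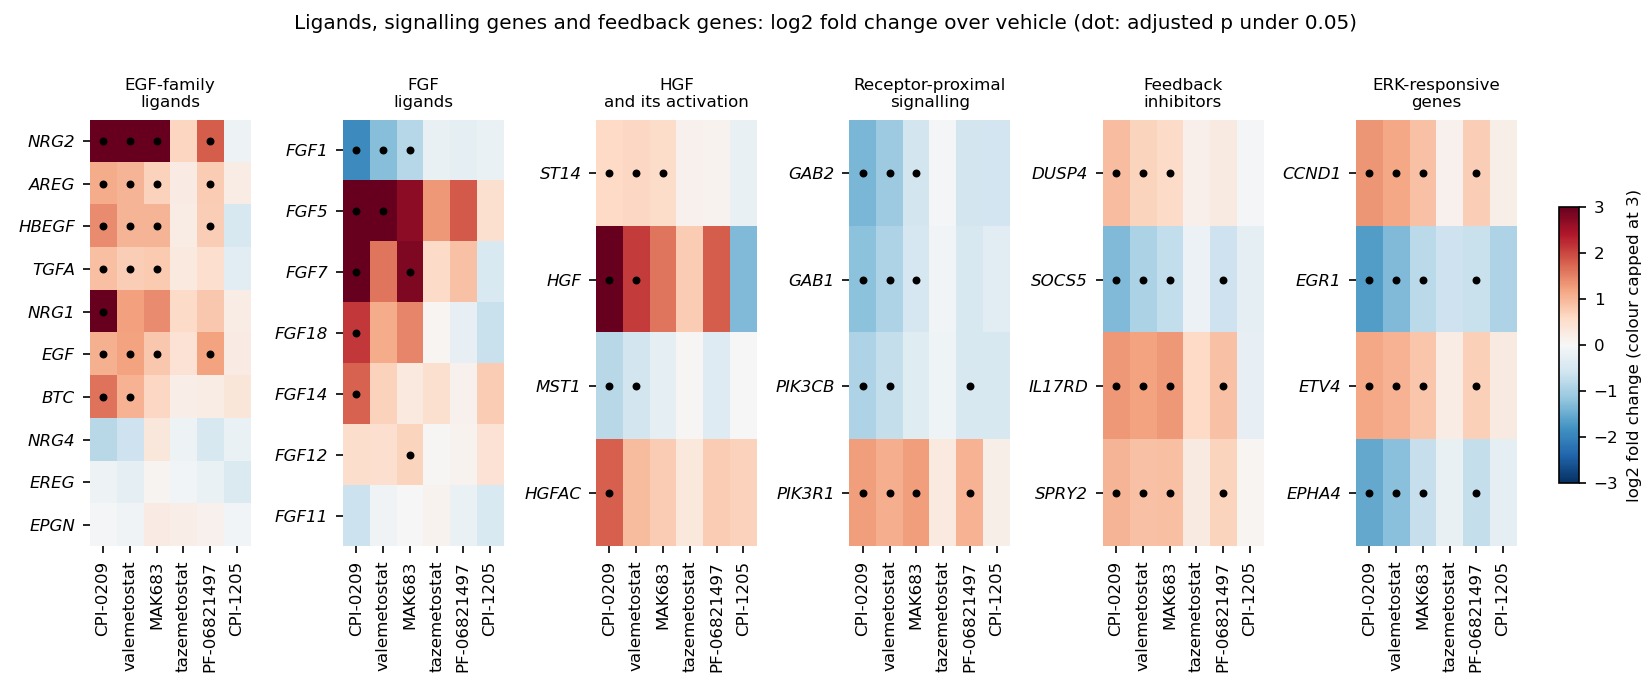
Log2 fold change over vehicle with each of the 6 compounds (columns). Rows are named genes of the ligand lists, receptor-proximal signalling genes, feedback inhibitors and ERK-responsive genes. Colour is capped at 3 and dots mark an edgeR adjusted p under 0.05. AREG, HBEGF, NRG2 and EGF have dots with CPI-0209, valemetostat, MAK683 and PF-06821497, and tazemetostat and CPI-1205 have none.

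Among the carriers and co-receptors of FGFs, 4 of 6 were tested, and 2 rose and 1 fell with CPI-0209. FGFBP1, a secreted carrier that frees FGFs from heparan sulphate, fell to 250 ± 51.8 CPM with CPI-0209, against 499.6 ± 23.9 CPM with vehicle (-0.999 ± 0.168, adjusted p 6.91e-05). FGFRL1, a receptor-like protein without a kinase, rose by 0.62 ± 0.15 with CPI-0209, 0.59 ± 0.15 with valemetostat and 0.65 ± 0.15 with MAK683. KLB, the co-receptor of FGF19 and FGF21, rose by 1.298 ± 0.515 with CPI-0209 (adjusted p 0.0486). The number that rose was 1 without vehicle library 2 or 3 or CPI-0209 library 1 or 3.

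For HGF and its activation, 7 of 8 genes were tested, and 3 rose and 2 fell with CPI-0209 (median 0.15). HGF stood at 1.298 ± 0.646 CPM with CPI-0209 and 0.118 ± 0.103 CPM with vehicle (3.35 ± 0.69, adjusted p 5.67e-04). The membrane protease gene ST14, whose product matriptase activates HGF, stood at 323 ± 62.0 and 212 ± 6.26 CPM (0.60 ± 0.16, adjusted p 0.00362), and the activator gene HGFAC rose by 1.80 ± 0.38. MST1, the ligand of the related receptor RON, fell by 0.83 (SE 0.16, adjusted p 3.88e-04). The number that fell was 1 without vehicle library 1 or 3 or CPI-0209 library 1 or 3.

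All 26 receptor-proximal signalling genes were tested. With CPI-0209, 2 rose and 11 fell (median -0.29), and with valemetostat 1 rose and 9 fell (median -0.23), the second count being 4 without vehicle library 3. The docking protein genes GAB1 (19.8 ± 4.69 CPM with CPI-0209 and 46.5 ± 5.00 CPM with vehicle, -1.23 ± 0.17, adjusted p 6.09e-06) and GAB2 (-1.38 ± 0.19, adjusted p 8.57e-06), which couple MET, EGFR and FGF receptors to PI3K and SHP2, fell with CPI-0209 and with valemetostat. PIK3CB, a catalytic PI3K subunit, fell by 0.93 and the regulatory subunit gene PIK3R1 rose by 1.26 ± 0.29 with CPI-0209. The number that rose with CPI-0209 was 1 without vehicle library 2 or CPI-0209 library 3.

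Of 20 feedback inhibitors, all tested, 7 rose and 4 fell with CPI-0209 (median -0.02), and 6 rose and 2 fell with MAK683. Among all genes tested, 22.3% rose and 18.8% fell with CPI-0209, and 10.4% rose and 5.17% fell with MAK683. DUSP4, a phosphatase of ERK, stood at 349 ± 27.5 CPM with CPI-0209 and 183 ± 13.7 CPM with vehicle (0.93 ± 0.11, adjusted p 9.8e-07). SPRY2, a Sprouty gene, rose by 1.03 ± 0.18, and IL17RD, which encodes the FGF antagonist SEF, by 1.305 ± 0.232. SOCS5, which promotes degradation of EGFR, fell by 1.33 (SE 0.17, adjusted p 3.56e-06). The number that fell with MAK683 was 1 without vehicle library 1 or 2 or MAK683 library 2 or 3.

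Of 12 ERK-responsive genes, all tested, 5 rose and 3 fell with CPI-0209 (median 0.33), 4 and 3 with valemetostat (0.28) and 3 and 2 with MAK683 (0.31). They did not move one way, and among all genes tested 22.3% rose and 18.8% fell with CPI-0209. The cyclin D1 gene CCND1 stood at 155 ± 9.60 CPM with CPI-0209 and 61.7 ± 2.99 CPM with vehicle (1.33 ± 0.19, adjusted p 8.7e-06), and the ETS factor gene ETV4 rose by 1.16 ± 0.16. The immediate early gene EGR1 stood at 52.3 ± 4.33 and 166 ± 36.3 CPM (-1.66 ± 0.20, adjusted p 1.01e-06), and EPHA4 fell by 1.53 (SE 0.22). With MAK683 the number that fell was 1 without vehicle library 3 or MAK683 library 2 or 3.

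Outside these families, 38 of 46 other receptor tyrosine kinases were tested. With CPI-0209, 16 rose and 5 fell (median 0.69), with valemetostat 12 and 3 (0.31), with MAK683 10 and 1 (0.56) and with PF-06821497 5 and 3 (0.16). The Wnt receptor gene ROR2 stood at 17.7 ± 2.71 CPM with CPI-0209 and 0.832 ± 0.142 CPM with vehicle (4.40 ± 0.37, adjusted p 1.23e-08). MUSK, the agrin-responsive kinase of the neuromuscular junction, rose by 3.37 ± 0.30, MERTK, a receptor for dying cells, by 1.77 ± 0.21, and PDGFRA by 2.85 ± 0.35. PDGFRA is also in the fibroblast marker list. The number that fell with CPI-0209 was 3 without vehicle library 1 or 3 or CPI-0209 library 1, and the count that rose with PF-06821497 was 3 without vehicle library 3. The number that fell with PF-06821497 was 1 without vehicle library 2 or 3 or PF-06821497 library 2 or 3, and that with MAK683 was 0 without vehicle library 3 or MAK683 library 2 or 3.

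EGFR and FGFR3 are often read beside basal and luminal markers of the urothelium, so both lists are given. Of 8 basal genes tested, 1 rose and 7 fell with CPI-0209 (median -0.93). DSG3, a desmosomal cadherin, stood at 113 ± 33.0 CPM with CPI-0209 and 384 ± 55.1 CPM with vehicle (-1.76 ± 0.22), CD44 fell by 0.75 and KRT6B by 1.100, and CDH3 rose by 0.36 ± 0.11. CDH3 did not pass without vehicle library 2, which left 0 basal genes higher. Of 10 luminal genes listed 7 were tested, and 1 rose and 3 fell. UPK1B, a uroplakin, stood at 301 ± 38.6 and 602 ± 30.7 CPM (-1.001 ± 0.152), PPARG fell by 0.90 and GATA3 by 0.50, while the low KRT20 rose by 1.91 ± 0.34. Some markers of both states fell with CPI-0209.

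The genes whose log2 CPM followed each receptor best over the 21 libraries were also recorded, among 16272 genes with a symbol and a mean of at least 1 CPM. These correlations describe libraries that share treatment groups, and carry no test. An r over 0.9 was reached by 375 genes for EGFR, 260 for FGFR1, 132 for MET, 122 for FGFR3 and 106 for FGFR4. It was reached by 53 genes for ERBB3, 32 for ERBB2 and none for FGFR2 or ERBB4. EGFR followed CERS6, SUN1 and ITGA6 (Pearson r 0.98 for each), and FGFR3 followed NEBL, VAV3 and RDH10 (0.95, 0.95 and 0.94). MET followed FAN1, COL4A5 and CLINT1 (0.95, 0.95 and 0.94), and ERBB3 followed SPTLC3, OSBPL2 and ARID5B (0.95, 0.94 and 0.94). FGFR1 followed SPI1, a myeloid transcription factor gene, LOXL1, a collagen and elastin cross-linking enzyme gene, and POTEF (0.98, 0.97 and 0.97). FGFR4 followed PDIA2, HLA-H and CD7 (0.95, 0.94 and 0.94), and HLA-H is a pseudogene close in sequence to other HLA genes. ERBB2 followed WDTC1, SCNN1A and LINC03061 (0.96, 0.94 and 0.93), FGFR2 followed BACE1, AK4 and CPD (0.88, 0.84 and 0.84), and ERBB4 followed ADAMTS4, FAM78A and MED12L (0.83, 0.79 and 0.77). Among the receptors themselves EGFR and MET were most alike (0.94), and FGFR3 and FGFR4 ran most opposite to each other (-0.81).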

How the data were processed

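RNA was measured by paired-end RNA-seq in 21 tumour libraries, 3 in each of 7 groups. The authors deposited whole-number counts per Ensembl gene for each library. The submitters' processing notes name hg38 as the assembly, RSEM 1.3.1 and STAR 2.7.3a, and the handling of strand and of mouse reads is not given in the sources used here. Library totals ran from 9725690 to 25771778 counts. No column of another sample was present.

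From these counts, 57500 genes were read, of which 9365 had no count in any library. Genes were kept by edgeR's filterByExpr with groups given, which left 21958 genes and 99.6% to 99.9% of the counts. Scaling was by TMM (factors 0.946 to 1.08). One quasi-likelihood model over the 7 groups was fitted in edgeR 4.0.16 under R 4.3.3, with 14 residual degrees of freedom and a common biological coefficient of variation of 0.163. Each compound was tested against vehicle, the 6 compounds against each other in 1 test, and the 15 pairs with p-values adjusted over all genes and pairs. TPM was computed from the counts and the gene lengths in the files. Log2 CPM for correlations used a prior count of 2. Limma 3.58.1 (voom) and DESeq2 1.42.0, other filters and scalings, fits of the compared groups alone, a skeletal muscle covariate, terms for libraries marked as resubmitted in their titles, a replicate block and leaving out each library were the alternatives.

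The receptors and gene lists were chosen with earlier results of these data known. Genes named with fold changes were the receptors, at most 4 tested genes per list, those of lowest p in the overall edgeR test of the 7 groups, every ligand averaging 1 CPM or more in some group, the 3 genes most correlated with each receptor and its nearest tested protein-coding neighbours. A count of 0 allows up to 3 counts, and intervals on counts cover counting error only.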

Additional observations from a re-analysis of the deposited data

How the results depend on the processing

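Across the 9 receptors and 6 compounds, 556 values under other settings kept their direction and side of the threshold, 14 passed it that had not, 3 no longer passed (ERBB2 with CPI-0209, FGFR1 with MAK683 and FGFR3 with PF-06821497, given above) and 9 changed sign. When single libraries were left out, these numbers were 289, 0, 21 and 14. FGFR2 with CPI-0209 became 0.0243 with a filter of 1 CPM in 3 libraries and 0.0842 with upper-quartile scaling. FGFR1 with tazemetostat became -0.12 with limma-voom and -0.23 with the skeletal muscle covariate. ERBB4 became 0.28 with PF-06821497 with a resubmission term and -1.02 with CPI-1205 with limma-voom. ERBB2 with CPI-1205 became 0.10 with the resubmission term and 0.35 without resubmitted libraries, and ERBB3 became 0.16 without them. Genes called with tazemetostat were 46 with no filter, 1 with upper-quartile scaling, 5 with DESeq2, 12 in a fit of the compared groups, 1 with the resubmission term and 3 without resubmitted libraries. With CPI-1205 they were 358 with no filter, 46 with DESeq2, 30 with the resubmission term and 226 without resubmitted libraries, and 1 receptor was called with no filter and 1 with DESeq2. The cause was not tested.

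Leaving out 1 library of the compared groups gave 0 to 1 genes called with tazemetostat, 0 to 4 with CPI-1205 and 1041 to 1995 with PF-06821497 (0 to 2, 0 to 4 and 1041 to 2426 over all 21 libraries), and 1 to 3 receptors with MAK683 and 1 to 2 with PF-06821497. Log2 fold changes that changed sign ranged from -0.31 to 0.0813 (ERBB2, CPI-1205), -2.75 to 0.66 (ERBB4, CPI-1205), -0.29 to 1.23 (ERBB4, MAK683), -0.57 to 0.19 (ERBB4, PF-06821497), -0.36 to 0.42 (ERBB4, tazemetostat), -0.54 to 0.0456 (FGFR1, CPI-1205), -0.57 to 0.30 (FGFR1, tazemetostat) and -0.10 to 0.0361 (FGFR2, CPI-0209). A group left with 2 libraries shares the spread of the others. Low counts limit FGFR4 and ERBB4.

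With the replicate number as a block, 7 receptors were called with CPI-0209, 5 with valemetostat, 4 with MAK683, 3 with PF-06821497 and 0 with tazemetostat or CPI-1205, the same numbers as without it, and 26 receptor and pair combinations instead of 30. Genes called were 8609 with CPI-0209, 5634 with valemetostat, 3141 with MAK683, 1795 with PF-06821497 and 0 with the other compounds. The numbers did not pair the libraries: deviations of 63 same-numbered pairs correlated at a mean of -0.03 (-0.32 to 0.34), those of 126 other pairs at 0.01, and 4 of 21 libraries correlated best with their own number.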
